A study of Mus musculus with 2 samples.

Results

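Semaphorins are guidance ligands, plexins are their signalling receptors, and neuropilins are the co-receptors that secreted semaphorins need to reach most plexins. All genes whose symbol names a semaphorin of class 3 to class 7, a plexin or a neuropilin were taken from the gene list of the deposited count matrices, without use of any measured value. This gave 31 genes of the 32285 listed, made up of 20 semaphorins, 9 plexins and 2 neuropilins. Their levels are described here by class of nuclei, first over both libraries and then in mice after subarachnoid haemorrhage (SAH), which is bleeding into the fluid space around the brain, against the library labelled Normal.

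Class 3 semaphorins are secreted, classes 4, 5 and 6 span the membrane, and the class 7 member is held on the membrane by a lipid anchor. Ligand binding opens the intracellular part of the plexin, which switches off small GTPases of the Ras and Rap type, and the cytoskeleton of the growing tip then collapses or turns. In the adult brain the family is known for its part in synapse number and spine shape, in myelinating cells, in vessels and in the response of microglia and macrophages. Neuropilins also bind vascular endothelial growth factor.

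The study sequenced nuclei from male mice, 6-8 weeks old per the labels (the methods give C57BL/6J mice and an older age range), and SAH was made by puncturing a vessel from inside with a filament 12 hours before the brain was taken. The tissue was a block of the ipsilateral hemisphere running from 2.34 mm in front of bregma to 2.18 mm behind it, a span that takes in cortex, striatum, thalamus and part of the hippocampus. Tissue of 3 mice was pooled for each condition and gave 1 library per condition. The control mice are labelled normal, while the methods of the study describe a sham operation without puncture for its controls, and which of these the Normal library holds was not settled by the sources. Each result below therefore sets 1 library against another: there is no replicate, no p-value is given, and the animal, the library and the condition cannot be told apart.

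The Normal library held 12204 nuclei and 114970719 unique molecular identifiers (UMIs, each standing for 1 captured RNA molecule). The SAH library held 18209 nuclei and 172604358 UMIs. These counts do not match those of the study. It reports more sham nuclei than the Normal library held before any filter, and more sham than SAH nuclei. The mismatch was not resolved. After limits on quality and removal of likely doublets 10955 and 15536 nuclei remained, with a median of 6864 UMIs per nucleus in Normal and 7850 in SAH. Both libraries shared 78 barcodes, which is 0.639% of the Normal and 0.428% of the SAH nuclei. Nuclei were grouped into 50 clusters, and each cluster was named only as "like" a cell type from its marker genes. Values of 13 classes were compared between the libraries, from the thalamic excitatory-like nuclei (405 in Normal, 813 in SAH) and the upper-layer cortical excitatory-like nuclei (1143 and 1738) to the hippocampal excitatory-like nuclei (178 and 306). Of the 13, 3 gather clusters that no subtype list named. These are other excitatory neuron-like (1850 and 2389 nuclei in 13 clusters), other inhibitory neuron-like (171 and 213 in 2 clusters) and both-transmitter nuclei (2292 and 2534 in 6 clusters). The last name, also written as nuclei of both transmitter types, holds for a whole cluster in which neither transmitter type stood 5-fold above the other. It does not hold for each nucleus: named one by one, 773 Normal and 773 SAH nuclei took it. The median UMI count per nucleus was higher in SAH in each of the 13 classes, for example 13297 in Normal and 14566 in SAH in thalamic and 1361 and 1744 in microglia-like nuclei. The oligodendrocyte-like class held 1738 and 3571 nuclei and the microglia-like class held 992 and 1209. Astrocyte nuclei were nearly absent, with 9 in Normal and 11 in SAH, and vascular nuclei numbered 20 and 10, so that most of the vessel side of the family could not be measured.

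Levels are CPM, the counts of a gene scaled to 1000000 UMIs of its class. A difference between the libraries is a log2 ratio of CPM, SAH over Normal, with an exact binomial 95% interval. These intervals cover counting error only. A gene was called higher or lower in a class when it had at least 100 UMIs over both libraries, differed by at least 1.5-fold and had an interval that left out 0. Levels of different genes are compared only per kilobase (kb) of gene, because reads within introns were counted and long genes collect more of them.

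The genes lie on 17 chromosomes and fall into 17 genes shorter than 50 kb and 14 of 100 kb or longer. Another annotated gene overlaps 10 of them on the same strand, as a microRNA gene does within *Nrp1* and within *Plxnb2*, and the reads of such a pair are not always separable. The stretches of 250 bases before the RefSeq start are shown for 5 genes whose results recur below (RefSeq, GRCm38.p6, 5′ to 3′ on the strand of the gene). *Sema6b* and *Sema7a* were each lower in SAH in 6 classes, *Plxnb2* was lower in 5, with its lowest ratio in microglia-like nuclei, *Plxnb3* had the lowest ratio of the oligodendrocyte-like class, and *Plxnc1* was compared in 11 classes and called in none. The set is a choice: *Plxna1*, lower in 6 classes, had no entry in the table, and *Plxna3*, *Sema4a*, *Sema5b* and *Sema6c*, lower in 5 each, are not printed. Capitals mark GC boxes, the letters GGGCGG on either strand, which transcription factors of the Sp family bind. The window of *Plxnb2* lies at chr15:89180789-89181038 on the minus strand, that of *Sema6b* at chr17:56140344-56140593 on the minus strand and that of *Sema7a* at chr9:57939862-57940111 on the plus strand. The window of *Plxnb3* lies at chrX:73756853-73757102 on the plus strand and that of *Plxnc1* at chr10:94944846-94945095 on the minus strand.
Plxnb2: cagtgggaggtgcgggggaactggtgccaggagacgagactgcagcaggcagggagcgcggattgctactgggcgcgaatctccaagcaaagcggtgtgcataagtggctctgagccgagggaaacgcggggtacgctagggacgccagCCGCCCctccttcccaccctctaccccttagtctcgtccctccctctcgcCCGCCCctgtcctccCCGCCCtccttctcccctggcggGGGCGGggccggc
Sema6b: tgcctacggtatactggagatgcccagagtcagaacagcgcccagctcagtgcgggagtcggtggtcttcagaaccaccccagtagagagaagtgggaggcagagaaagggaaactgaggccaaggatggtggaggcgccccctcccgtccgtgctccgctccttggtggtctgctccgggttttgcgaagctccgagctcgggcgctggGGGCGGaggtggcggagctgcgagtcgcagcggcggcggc
Sema7a: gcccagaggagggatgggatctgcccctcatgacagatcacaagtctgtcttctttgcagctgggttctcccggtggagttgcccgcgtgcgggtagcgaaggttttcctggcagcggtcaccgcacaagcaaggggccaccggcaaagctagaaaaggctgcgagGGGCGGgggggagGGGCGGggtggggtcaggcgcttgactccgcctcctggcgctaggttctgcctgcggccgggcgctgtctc
Plxnb3: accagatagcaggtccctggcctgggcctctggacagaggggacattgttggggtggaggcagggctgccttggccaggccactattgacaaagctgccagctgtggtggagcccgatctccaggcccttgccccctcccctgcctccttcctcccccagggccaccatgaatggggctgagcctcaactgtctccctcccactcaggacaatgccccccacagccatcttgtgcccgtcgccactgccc
Plxnc1: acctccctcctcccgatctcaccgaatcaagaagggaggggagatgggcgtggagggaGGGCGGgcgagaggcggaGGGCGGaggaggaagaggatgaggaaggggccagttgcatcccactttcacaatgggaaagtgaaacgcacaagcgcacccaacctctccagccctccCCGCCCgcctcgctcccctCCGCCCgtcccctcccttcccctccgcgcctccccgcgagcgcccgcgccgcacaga

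These windows held 4 GC boxes for *Plxnb2*, 1 for *Sema6b*, 2 for *Sema7a*, 0 for *Plxnb3* and 4 for *Plxnc1*. The *Plxnb3* window also held only 3 CG pairs, against 20 for *Plxnb2*, 20 for *Sema6b*, 17 for *Sema7a* and 22 for *Plxnc1*. Of the recurrently lower genes not printed, *Plxna3*, *Sema4a* and *Sema6c* had 1 GC box each and *Sema5b* had 0, in a window whose start lies within the annotated gene. An entry was found for 26 of the 31 genes, and 20 of these windows (76.9%) held at least 1 GC box, against 32.7% of all 32851 windows in the table. The median GC content was 64.6% for the family and 52.4% for all windows. These sets are unlike: the family has 1 window per gene, the one nearest the annotated start. The full set was not selected in this way and can hold several windows of a gene. A GC box was thus present in a called gene and in an uncalled gene alike, and the letters are a description of the window, not evidence of binding.

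Of the secreted ligands, *Sema3c*, which acts through either neuropilin, stood at 205 CPM in Normal and 244 CPM in SAH in the caudal ganglionic-type interneuron-like nuclei. Leaving out the few precursor, vascular and astrocyte nuclei, the next class held 36.5 CPM over both libraries. The vascular nuclei held *Sema3c* at a higher CPM than the caudal class, as given below. *Sema3e*, which binds plexin-D1 without a neuropilin, was highest in the striatal spiny projection neuron-like nuclei (168 CPM in Normal, 237 CPM in SAH) and in the caudal ganglionic-type nuclei (208 and 193 CPM), and the intervals of these classes overlapped. *Sema3e* was also among the 10 leading genes of a cluster of the other excitatory class (213 Normal and 202 SAH nuclei). *Gm2115* and *Fibcd1*, which are on the hippocampal marker list, were among its leading genes too. Statements on the hippocampal class therefore cover 1 named cluster and not all nuclei of hippocampal type. *Sema3a*, the founding repellent of axons, reached 121 CPM over both libraries in the medial ganglionic-type interneuron-like and in the spiny projection neuron-like nuclei alike.

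*Sema3d* stood at 27.2 CPM in the oligodendrocyte-like class, the highest of the compared classes, but 947 CPM in the few oligodendrocyte precursor nuclei (66 UMIs in 24 Normal nuclei and 149 UMIs in 34 SAH nuclei). *Sema3f*, the ligand for neuropilin-2, reached no more than 8.40 CPM in any class. *Sema3b* and *Sema3g* had 31 and 33 UMIs in all kept nuclei together and were compared in no class.

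Of the class 4 semaphorins, *Sema4d*, also known as CD100, was highest in glial nuclei. It stood at 139 CPM in the microglia-like and 137 CPM in the oligodendrocyte-like nuclei over both libraries, which their intervals did not separate. In neurons *Sema4d* stood at 54.8 CPM in Normal and 43.1 CPM in SAH. *Sema4a* stood at 62.9 CPM in Normal and 24.8 CPM in SAH in the deep-layer cortical excitatory-like nuclei and, on 5 UMIs in each library, at 126 and 18.8 CPM in the macrophage-like nuclei, and the intervals of these classes overlapped (39.0 and 32.7 CPM over both libraries). *Sema4g* showed no single class, with 28.6 CPM in thalamic excitatory-like and 28.4 CPM in caudal ganglionic-type nuclei. *Sema4c* and *Sema4b* were highest in the microglia-like nuclei, *Sema4c* at 35.1 CPM in Normal and 18.1 CPM in SAH and *Sema4b* at 38.5 and 17.2 CPM, without intervals apart from the next class. *Sema4f* was highest in the hippocampal nuclei, at 27.6 CPM in Normal and 24.6 CPM in SAH.

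The class 5 members, which carry thrombospondin repeats, parted between excitatory classes. *Sema5a* was highest in the hippocampal excitatory-like nuclei, at 721 CPM in Normal and 918 CPM in SAH. *Sema5b* was highest in the deep-layer cortical nuclei, at 140.0 CPM in Normal and 81.5 CPM in SAH, followed by the spiny projection neuron-like nuclei with 58.6 CPM over both libraries. It was a leading gene of 1 of the 3 deep-layer clusters (147 Normal and 192 SAH nuclei). The name of that cluster only just met the rule: the mean log2 level of the deep-layer list was 1.504 over the median cluster, where 1.5 was needed.

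In class 6, *Sema6d*, a ligand of plexin-A1, was among the 5 genes compared in all 13 classes and stood at 408 to 570.5 CPM of the Normal library in the deep-layer, hippocampal, medial and caudal ganglionic-type, spiny projection neuron-like and thalamic classes. Its highest level was that of the other inhibitory neuron-like nuclei, at 577 CPM in Normal and 769 CPM in SAH. *Sema6a*, a ligand of plexin-A2 and plexin-A4, was highest in the oligodendrocyte-like nuclei, with 406 CPM in Normal and 407 CPM in SAH. *Sema6b*, a ligand of plexin-A4, held at most 18.4 CPM over both libraries in any class ranked. Per kb, this short gene led the semaphorins of the other excitatory nuclei, with 0.854 CPM per kb. *Sema6c* was highest in the caudal ganglionic-type nuclei, at 31.4 CPM in Normal and 11.7 CPM in SAH. *Sema7a*, the lipid-anchored ligand of plexin-C1 and of beta1 integrin, held 23.4 CPM in hippocampal and 21.7 CPM in upper-layer cortical nuclei over both libraries, its highest levels. Per kb it led the semaphorins of the upper-layer nuclei, with 0.953 CPM per kb. Outside the excitatory classes it stood at 22.6 CPM in Normal and 9.73 CPM in SAH in medial ganglionic-type and at 22.1 and 16.8 CPM in oligodendrocyte-like nuclei.

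The A-type plexins, which pair with neuropilins or bind class 6 ligands directly, were highest in neurons. *Plxna4* reached 1152 CPM in Normal and 1431 CPM in SAH in the hippocampal nuclei, while the next class held 553 CPM over both libraries. *Plxna4* also stood at 447 CPM in Normal and 397 CPM in SAH in the microglia-like nuclei, which was 116% and 97.1% of its level in the neurons of the same library. *Plxna2* was highest in the deep-layer cortical nuclei, at 418 CPM in Normal and 508 CPM in SAH. *Plxna1* and *Plxna3*, both shorter than 50 kb, held at most 21.9 and 13.6 CPM over both libraries in any class. Per kb, *Plxna3* led the plexins in caudal ganglionic-type nuclei, with 0.869 CPM per kb.

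Of the 3 B-type plexins, 2 were highest in the oligodendrocyte-like class. *Plxnb3*, a receptor for semaphorin 5A, stood there at 154 CPM in Normal and 53.3 CPM in SAH, and the next class held 3.27 CPM over both libraries. *Plxnb1*, a receptor for semaphorin 4D, stood there at 41.2 CPM in Normal and 37.4 CPM in SAH, against 4.94 CPM in the next class. *Plxnb2* was highest in the microglia-like nuclei, with 124 CPM over both libraries, followed by 85.0 CPM in the macrophage-like nuclei.

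*Plxnc1*, the receptor of semaphorin 7A, stood at 111 CPM in the amygdalar excitatory-like and 104 CPM in the medial ganglionic-type nuclei, whose intervals overlapped. *Plxnd1* was highest in the amygdalar nuclei, at 37.9 CPM in Normal and 17.8 CPM in SAH.

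The neuropilins were most abundant in the small macrophage-like class, with 827 CPM of *Nrp1* and 487 CPM of *Nrp2* over both libraries. Among the neuron classes *Nrp1* was highest in hippocampal nuclei, at 339 CPM in Normal and 441 CPM in SAH. Deep-layer cortical nuclei followed, at 316 CPM in Normal and 290.1 CPM in SAH. *Nrp1* was also among the 10 leading genes of a cluster of the other excitatory class (128 Normal and 162 SAH nuclei). In the Normal library *Nrp2* was highest in the inhibitory nuclei that no subtype list named, at 175 CPM.

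Per kilobase of gene, the order within a class changed towards short genes. In oligodendrocyte-like nuclei *Plxnb3* led with 5.43 CPM per kb, ahead of *Sema6a* with 3.05 CPM per kb. In microglia-like nuclei *Plxnb2* led with 4.91 CPM per kb, followed by *Sema4c* with 2.55 CPM per kb and *Nrp1* with 1.72 CPM per kb. In hippocampal nuclei *Plxna4* led with 3.02 CPM per kb, and in thalamic, medial and caudal ganglionic-type nuclei the short gene *Sema4g* led with 2.00, 1.80 and 1.99 CPM per kb. Over the 14 classes of nuclei ranked, 14 of the 31 genes had a single highest class whose interval stood apart from that of the next.

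**Figure D1:**
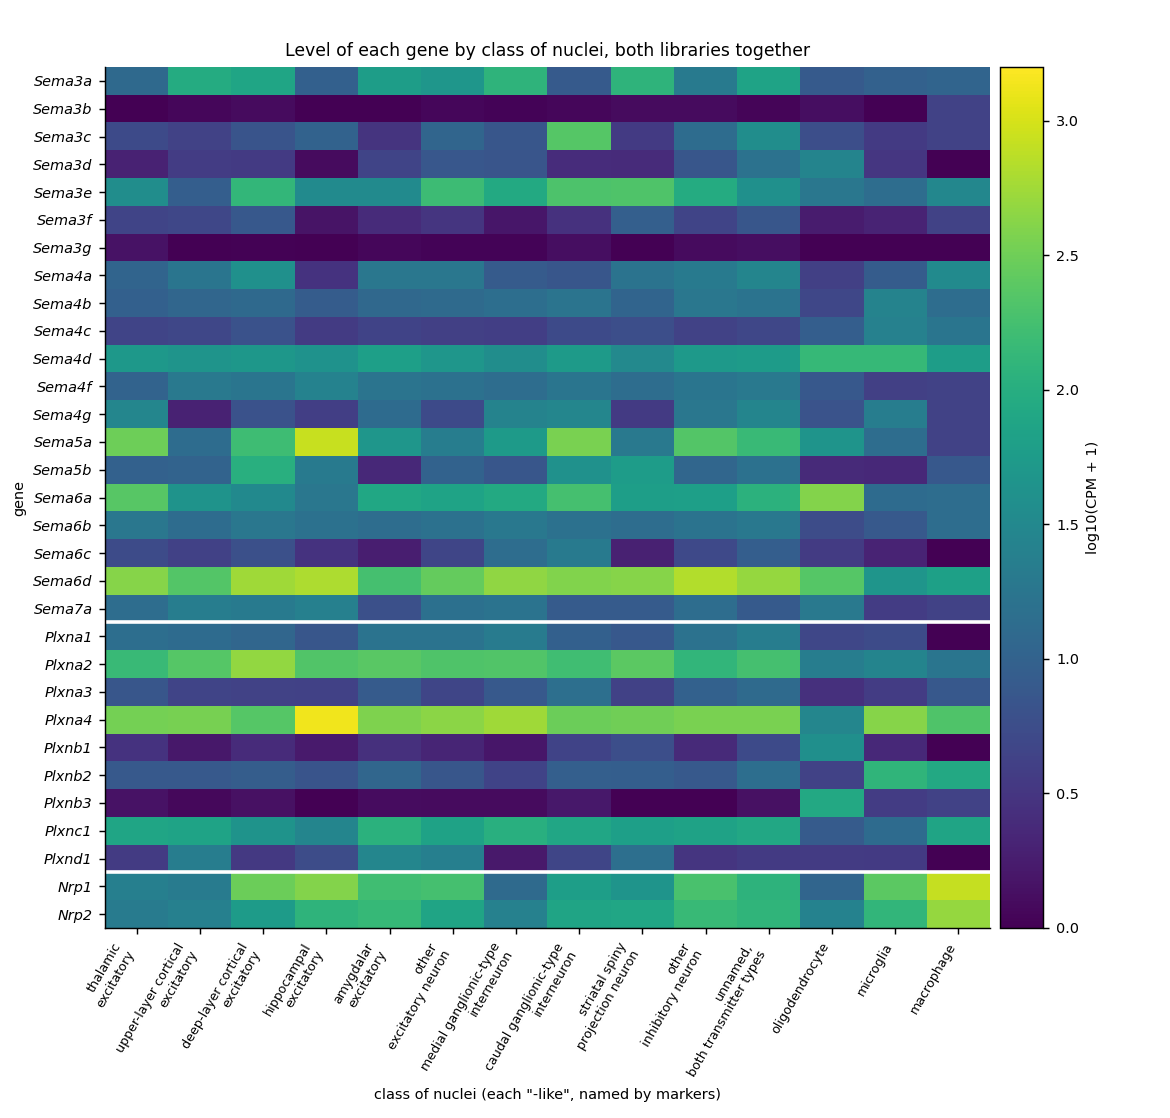
Level of each of the 31 genes (rows) in the classes of nuclei (columns) over both libraries, as log10(CPM + 1); yellow cells are higher and dark cells lower, and rows are not comparable with each other because gene length differs. *Plxna4* and *Sema5a* peak in the hippocampal column, *Plxnb3*, *Plxnb1* and *Sema6a* in the oligodendrocyte column, *Plxnb2* in the microglia column and both neuropilins in the macrophage column.

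In the comparison of SAH with Normal, 29 genes were compared in at least 1 class, which gave 227 pairs of gene and class. Of these 10 were called higher and 67 lower in the SAH library. Over all genes tested, the share called lower ranged from 11.7% to 19.0% by class, and the share called higher from 4.70% to 14.7%. Lower calls outnumbered higher ones among all genes too, except in microglia-like nuclei. Within the family the lower calls came from 21 genes and the higher calls from 6 genes. Of these, *Nrp2*, *Sema5a* and *Sema6d* were called in both directions in different classes. Under up to 9 other ways of processing the nuclei or scaling the ratios, 28 of the 77 calls kept the fold and the interval in each one run, and those 28 were all lower in SAH. This tally, and each statement below that a call was kept or lost, reads the fold and the interval without the minimum of 100 UMIs, which few genes reach once nuclei are thinned to 1000 UMIs. How many calls of all genes were kept in this way is not given. *Plxna4* was called in none of the 13 classes in which it was compared, and neither was *Plxnc1* in 11, *Sema6a* in 11, *Sema4f* in 9 or *Sema3c* in 6.

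**Figure D2:**
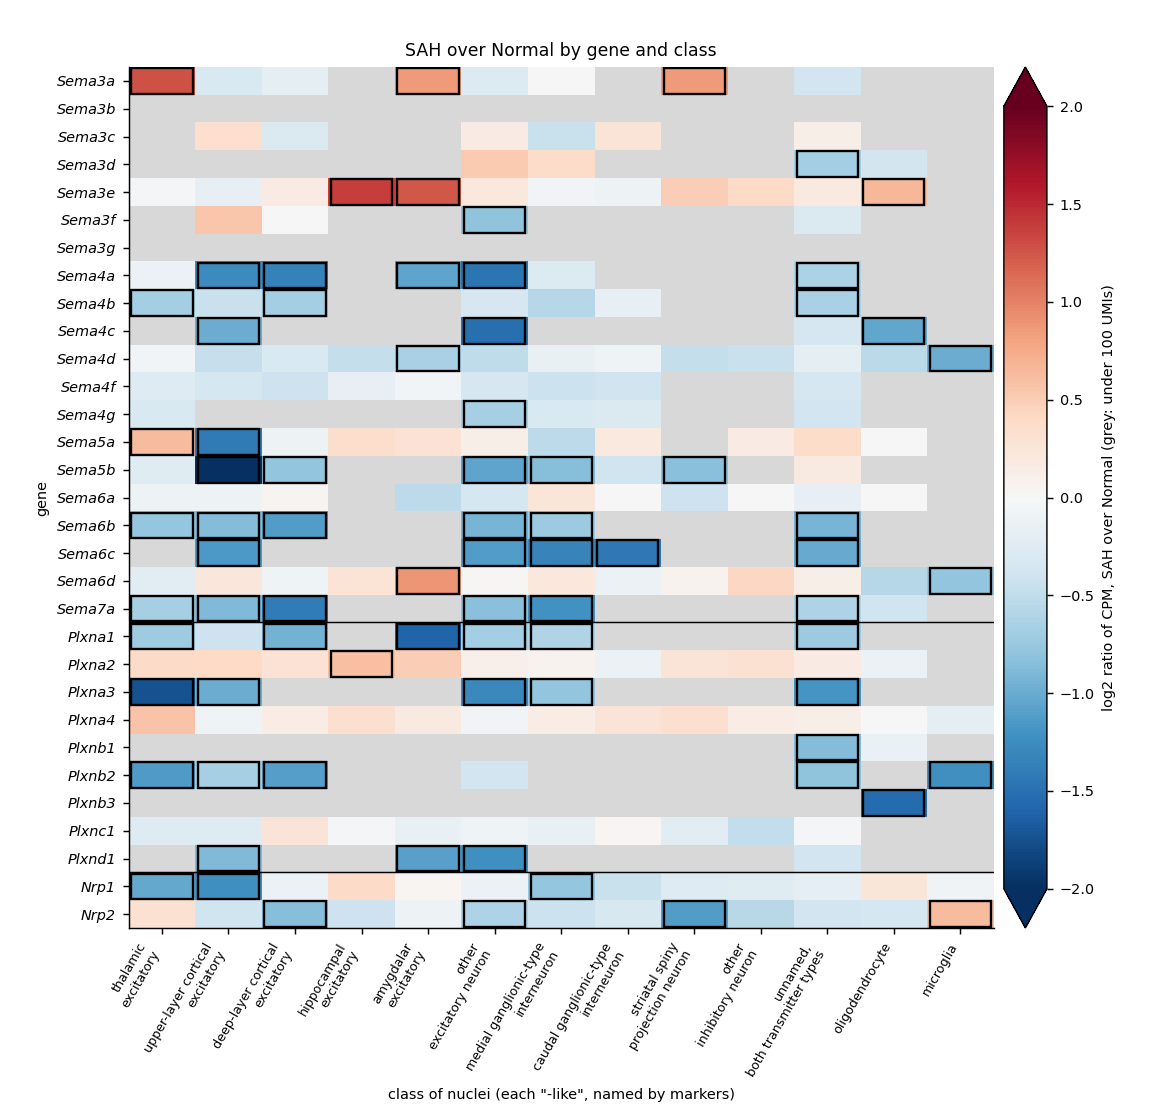
Log2 ratio of CPM, SAH over Normal, for each gene (rows) in the 13 compared classes (columns); blue cells are lower and red cells higher in SAH, cells with a black outline passed the call rule, and grey cells had fewer than 100 UMIs. Outlined blue cells are most frequent in the cortical, thalamic, medial ganglionic-type, other excitatory and both-transmitter columns. The hippocampal column is mostly grey, and most of its 10 coloured cells are red.

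In thalamic excitatory-like nuclei the receptors *Nrp1*, *Plxna3*, *Plxnb2* and *Plxna1* and the ligands *Sema6b*, *Sema4b* and *Sema7a* were lower in SAH. The ligands *Sema3a* and *Sema5a* were higher. *Nrp1* stood at 35.4 CPM in Normal and at 17.3 CPM in SAH (log2 ratio −1.03, −1.31 to −0.75), and was lower in SAH in each of the 3 clusters of the class (39.9 to 20.6, 21.4 to 9.22 and 66.8 to 23.4 CPM). *Plxna3*, which relays class 3 signals with neuropilins, stood at 11.6 and 3.45 CPM, a log2 ratio of −1.75 (−2.33 to −1.18). *Sema3a*, a ligand of neuropilin-1, went the other way at 5.79 and 14.0 CPM, a log2 ratio of 1.27 (0.74 to 1.83), on 36 and 174 UMIs, and lost the call when nuclei were named one by one or thinned.

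*Sema5a* stood at 225 CPM in Normal and 351 CPM in SAH (log2 ratio 0.64, 0.55 to 0.73), the call in this class that rests on the most UMIs, 1401 and 4374. *Plxnb2* stood at 10.8 and 4.89 CPM (−1.14, −1.66 to −0.62) and *Plxna1* at 17.9 and 10.9 CPM (−0.71, −1.08 to −0.34). The *Sema5a* call was lost when ratios were centred on genes of like length. From the largest to the smallest cluster of the class its log2 ratio was 0.57 (0.44 to 0.71), 0.82 (0.70 to 0.94) and 0.30 (−0.02 to 0.63). The first and the last of these lay under the 1.5-fold limit. The remaining lower calls were the ligands *Sema6b* (24.6 and 14.4 CPM), *Sema4b* (11.3 and 7.06 CPM) and *Sema7a* (17.2 and 10.8 CPM), of which *Sema7a* lost the call under 6 of 9 alternatives. In the largest cluster *Sema7a* was nearly level, at 8.09 and 7.59 CPM (−0.09, −0.75 to 0.59). In the next largest it was lower, at 33.3 and 17.9 CPM (−0.90, −1.40 to −0.39). In all 2 of 21 genes were higher and 7 lower, against 8.19% of 10515 genes tested in the class that were higher and 12.9% that were lower. The median log2 ratio was −0.25 for the family and −0.09 for all genes tested, and the family median was 0.29 over the 6 genes left with nuclei thinned.

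*Sema6d* and *Plxna4*, the ligand and the plexin with the highest CPM in the thalamic class, were not called. *Sema6d* stood at 460.1 and 397 CPM (−0.21, −0.28 to −0.15) and *Plxna4* at 253 and 377 CPM (0.57, 0.49 to 0.66). The *Plxna4* ratio was just under the 1.5-fold limit.

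In upper-layer cortical excitatory-like nuclei no gene was higher and 11 of 25 were lower in SAH, where 11.5% of 12350 genes tested were higher and 19.0% lower. The median log2 ratio was −0.45 for the family and −0.15 for all genes. *Nrp1* stood at 31.4 CPM in Normal and 13.5 CPM in SAH (−1.22, −1.44 to −1.0), and in the 3 largest clusters of the class it stood at 39.3 and 11.2, 12.8 and 6.71, and 46.7 and 29.7 CPM. *Plxnd1*, the receptor of semaphorin 3E, stood at 30.1 and 16.3 CPM (−0.89, −1.10 to −0.68).

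Of the ligands, *Sema4a* stood at 26.5 and 10.9 CPM (−1.28, −1.52 to −1.04) and *Sema7a* at 30.3 and 16.5 CPM (−0.88, −1.09 to −0.67). *Sema6b* stood at 17.4 and 9.47 CPM, *Sema6c* at 4.81 and 2.18 CPM, and *Sema4c* at 5.41 and 2.72 CPM. The plexins *Plxna3* (5.04 and 2.54 CPM) and *Plxnb2* (8.87 and 5.62 CPM) were lower too, and *Plxnb2* lost the call under 4 of 9 alternatives. *Sema6d* (197 and 231 CPM), *Plxna4* (356 and 337 CPM) and *Nrp2* (27.7 and 21.0 CPM), which led their groups in CPM, were not called.

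*Sema5a* and *Sema5b* had the lowest ratios of the upper-layer class, and most of their UMIs lay in 1 small cluster led by *Nr4a2*, which held 73 Normal and 27 SAH nuclei. The upper-layer name of that cluster is weak. Of its 10 leading genes 0 were on the upper-layer list. The mean log2 level of that list was 1.58 over the median cluster, where the name needed 1.5. *Sema5b* stood at 19.6 and 3.13 CPM over the class (−2.65, −3.05 to −2.26) and at 210.4 and 109.6 CPM within that cluster, and it was lower as well in the largest cluster (10.4 and 1.37 CPM). *Sema5a* stood at 20.8 and 7.79 CPM over the class (−1.42, −1.70 to −1.14) and at 249.9 and 189 CPM within it, where 304 of its 449 UMIs lay. With the same make-up of clusters in both libraries the log2 ratio was −1.35 for *Sema5b* and −0.21 for *Sema5a*. This setting evens out all clusters of the class, and the part of the *Nr4a2* cluster alone was not tested. With doublets kept the *Sema5a* ratio turned to 0.40.

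In deep-layer cortical excitatory-like nuclei 8 of 21 genes were lower and none higher, against 17.0% of 10108 genes tested that were lower and 7.51% that were higher. *Sema7a* stood at 33.0 CPM in Normal and 12.5 CPM in SAH (−1.40, −1.73 to −1.08). *Sema4a* stood at 62.9 and 24.8 CPM (−1.34, −1.57 to −1.12). *Sema6b* stood at 26.1 and 12.1 CPM (−1.11, −1.45 to −0.77), and *Sema5b* at 140.0 and 81.5 CPM (−0.78, −0.92 to −0.65).

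*Sema7a* and *Sema4a* were lower in SAH in value in each of the 3 clusters of the deep-layer class. *Nrp2* stood at 78.5 and 43.3 CPM (−0.86, −1.04 to −0.67) and lost the call with doublets kept or coarser clusters, while *Nrp1* stood at 316 and 290.1 CPM (−0.12, −0.20 to −0.04) and was not called. The plexins *Plxnb2* (11.6 and 5.40 CPM) and *Plxna1* (14.9 and 7.73 CPM) and the ligand *Sema4b* (14.7 and 9.22 CPM) completed the lower calls, and *Sema4b* lost the call under 4 of 9 alternatives. *Sema6d* (570.5 and 537 CPM) and *Plxna2* (418 and 508 CPM) were not called. The median log2 ratio was −0.28 for the family and −0.17 for all genes, and 0.020 over the 8 members left with nuclei thinned.

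In the hippocampal excitatory-like nuclei 2 of 10 genes were higher and none lower, where 8.06% of 5300 genes tested were higher and 13% lower. *Plxna2* stood at 158 CPM in Normal and 240 CPM in SAH (0.60, 0.38 to 0.83). *Sema3e* stood at 16 and 41.7 CPM (1.39, 0.72 to 2.12), on 22 and 117 UMIs. With nuclei named one by one the *Sema3e* ratio turned to −0.37, and *Plxna2* lost the call. *Plxna4*, *Sema5a*, *Nrp1* and *Sema6d*, the members with the highest CPM here, had log2 ratios of 0.31, 0.35, 0.38 and 0.27. Their intervals lay above 0, but the ratios did not reach the 1.5-fold limit. The median log2 ratio was 0.29 for the family and −0.09 for all genes. The class was 1 cluster, and 9 of its 10 compared members were of 100 kb or longer.

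In medial ganglionic-type interneuron-like nuclei 7 of 23 genes were lower and none higher, against 18.4% of 10308 genes tested that were lower and 6.01% that were higher. *Sema6c* stood at 19.3 CPM in Normal and 7.63 CPM in SAH (−1.34, −1.77 to −0.91), and *Sema7a* at 22.6 and 9.73 CPM (−1.22, −1.60 to −0.84). *Sema6c* was lower in SAH in both large clusters of the class, at 21.3 and 9.69 CPM in that led by *Eya4* and at 18.3 and 6.49 CPM in that led by *Sst*, and *Sema7a* stood there at 36.9 and 14.5 CPM and at 10.6 and 6.22 CPM. *Nrp1* stood at 15.4 and 8.96 CPM (−0.78, −1.21 to −0.36).

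The other lower calls of the medial class were *Plxna3* (8.83 and 5.09 CPM), *Sema5b* (8.16 and 4.53 CPM, and level with nuclei named one by one), *Sema6b* (23.3 and 14.0 CPM) and *Plxna1* (24.9 and 16.4 CPM). *Sema6c* kept the fold and the interval under all 9 alternatives. *Sema6d* (428 and 493 CPM), *Plxna4* (523 and 578 CPM) and *Nrp2* (28.6 and 21.2 CPM) were not called. *Sema3a*, which this class holds at its highest level, was nearly level at 121 and 120.2 CPM. The family had a median log2 ratio of −0.42, and all genes −0.19, and the family median was 0.057 over the 7 genes left with nuclei thinned.

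In caudal ganglionic-type interneuron-like nuclei only *Sema6c* of 16 genes was called, at 31.4 CPM in Normal and 11.7 CPM in SAH (−1.43, −1.99 to −0.89). Of 7138 genes tested 13.7% were lower and 4.76% higher. *Sema3c*, highest here among the neuron classes, was not called, at 205 and 244 CPM (0.25, 0.10 to 0.41). Neither was *Sema3e*, at 208 and 193 CPM, nor were *Sema6d* (413 and 379 CPM), *Plxna4* (274 and 328 CPM) or *Nrp2* (82.7 and 66.0 CPM). The family had a median log2 ratio of −0.12, and all genes −0.13.

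In striatal spiny projection neuron-like nuclei, a class of 1 cluster, *Nrp2* stood at 111 CPM in Normal and 51.2 CPM in SAH (−1.11, −1.46 to −0.78). *Sema5b* was lower too, at 78.1 and 43.8 CPM (−0.83, −1.22 to −0.45), and lost the call with coarser clusters or thinning. *Sema3a* was higher, at 82.7 and 149 CPM (0.85, 0.57 to 1.14) on 144 and 344 UMIs, a difference that was gone when nuclei were named one by one. Thus 1 of 11 genes was higher and 2 were lower, where 5.81% of 5215 genes tested were higher and 14.2% lower.

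*Sema3e*, the other secreted ligand of the spiny projection neuron-like class, stood at 168 and 237 CPM (0.50, 0.29 to 0.71), short of the limit. *Sema6d* (408 and 429.9 CPM) and *Plxna4* (279 and 347 CPM) were not called. The family had a median log2 ratio of −0.22, and all genes −0.13, and the family median was 0.22 over the 3 genes left with nuclei thinned.

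In amygdalar excitatory-like nuclei, 1 cluster of 264 Normal and 221 SAH nuclei, the ligands *Sema6d*, *Sema3a* and *Sema3e* were higher in SAH and 4 genes were lower, of 15 compared. The amygdalar name is weak. Of the 8 listed markers 6 were raised, but their mean log2 level was 1.64 over the median cluster, where the name needed 1.5. Only 1 was among the 10 leading genes, and *Rspo2*, of the same list, was a leading gene of clusters in the other excitatory class. *Sema6d* stood at 129 CPM in Normal and 237 CPM in SAH (0.88, 0.71 to 1.05), *Sema3a* at 42.7 and 76.7 CPM (0.84, 0.55 to 1.15) and *Sema3e* at 19.8 and 46.8 CPM (1.24, 0.82 to 1.67). All 3 lost the call with nuclei named one by one. Of all 7034 genes tested here 4.78% were higher and 17.8% lower.

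The lower calls of the amygdalar class were *Plxnd1* (37.9 and 17.8 CPM; −1.09, −1.56 to −0.63), *Plxna1* (23.0 and 7.55 CPM), *Sema4a* (23.8 and 11.5 CPM) and *Sema4d* (75.7 and 48.3 CPM), and *Sema4d* lost the call under 4 of 8 alternatives. No cluster took this name with doublets kept. *Plxna4* (356 and 402 CPM) and *Nrp1* (164 and 169 CPM) were not called. The median log2 ratio was −0.06 for the family and −0.18 for all genes, and 0.93 over the 3 members left with nuclei thinned.

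In the other excitatory neuron-like nuclei, which join 13 clusters without a subtype name, no gene was higher and 12 of 27 were lower, where 10.5% of 13908 genes tested were higher and 18.2% lower. *Plxnd1* stood at 34.5 CPM in Normal and 14.8 CPM in SAH (−1.22, −1.38 to −1.07) and *Sema4a* at 27.9 and 10.2 CPM (−1.46, −1.65 to −1.28). *Nrp2* stood at 91.5 and 59.6 CPM and lost the call under 5 of 9 alternatives. The other lower calls were the ligands *Sema6b* (20.3 and 10.7 CPM), *Sema7a* (19.2 and 10.8 CPM), *Sema5b* (13.3 and 6.38 CPM), *Sema4g* (5.35 and 3.38 CPM), *Sema6c* (5.31 and 2.44 CPM), *Sema4c* (4.82 and 1.69 CPM) and *Sema3f* (2.87 and 1.64 CPM) and the plexins *Plxna1* (19.9 and 12.3 CPM) and *Plxna3* (5.50 and 2.25 CPM). *Sema6d* (276 and 282 CPM), *Plxna4* (449 and 430.1 CPM) and *Nrp1* (191 and 175 CPM) were not called. The family median log2 ratio was −0.38, against −0.16 for all genes.

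In the nuclei of clusters with markers of both transmitter types no gene was higher and 10 of 28 were lower, where 8.79% of 13781 genes tested were higher and 17.5% lower. *Plxna3* stood at 17.0 CPM in Normal and 7.46 CPM in SAH (−1.19, −1.45 to −0.92), *Plxnb2* at 17.1 and 9.79 CPM, *Plxna1* at 27.8 and 16.9 CPM and *Plxnb1* at 5.70 and 3.11 CPM. The ligands called were *Sema6c* (11 and 5.43 CPM), *Sema6b* (24.7 and 13 CPM), *Sema3d* (18.7 and 11.7 CPM), *Sema4b* (19.3 and 12.3 CPM), *Sema4a* (34.4 and 22.1 CPM) and *Sema7a* (8.67 and 5.64 CPM). *Sema3d* lost the call under 4 of 9 alternatives, among them equal make-up of the class. It is a leading gene of a small cluster of this class that held 40 Normal and 4 SAH nuclei. *Sema6d* (467 and 505 CPM), *Plxna4* (346 and 376 CPM) and *Nrp2* (140.0 and 107 CPM) were not called. The family median was −0.36, against −0.17 for all genes.

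In the other inhibitory neuron-like nuclei none of 10 genes, all of 100 kb or longer, was called, where 4.70% of 5708 genes tested were higher and 11.7% lower. *Sema6d* stood at 577 and 769 CPM (0.42, 0.31 to 0.53), *Plxna4* at 340.4 and 379 CPM and *Nrp1* at 206 and 175 CPM. *Nrp2* stood at 175 and 119 CPM (−0.56, −0.80 to −0.33), just short of the limit. With nuclei named one by one this class grew to 1114 and 1097 nuclei, and 7 of 24 genes were then lower. The share of all genes lower in the class so named is not given, so this count has no background beside it. The median log2 ratio was 0.08 for the family and −0.12 for all genes.

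Glial nuclei can carry RNA set free from neurons, so the level of neuronal genes in them is given first. A list of 12 neuronal genes summed to 7.92% in Normal and 7.87% in SAH of its level in neurons in the oligodendrocyte-like nuclei, and to 12.1% and 10.3% in the microglia-like nuclei. Single genes of that list ranged from 5.36% to 35.3% (Normal) and from 6.07% to 26.1% (SAH) in oligodendrocyte-like nuclei. The summed level of the 12 oligodendrocyte markers in their own class was 30880.5 CPM in Normal and 17811 CPM in SAH, and that of the 11 microglia markers in theirs was 21814 and 13271 CPM. Their part in the results that follow was not tested.

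In oligodendrocyte-like nuclei *Plxnb3* (GRCm38 chrX:73757090-73772514, plus strand) stood at 154 CPM in Normal and at 53.3 CPM in SAH (log2 ratio −1.53, −1.72 to −1.36). It was lower in all 4 clusters of the class, at 146 and 48.2, 155 and 57.7, 174 and 63.5, and 159.7 and 48.3 CPM. In neurons its level was 0.373 CPM in Normal and 0.232 CPM in SAH. *Sema4c*, a ligand of plexin-B2, stood at 12.7 and 6.18 CPM (−1.04, −1.63 to −0.44).

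*Sema3e* was the only higher call of the class, at 12.4 and 19.7 CPM (0.67, 0.19 to 1.17). These levels were 15.5% and 22.1% of those in neurons, within the range of the neuronal list, and the call was lost under 3 of 9 alternatives. Of 14 genes compared in this class 1 was higher and 2 were lower, against 13.7% of 9401 genes tested that were higher and 16.3% that were lower. Over the family the median log2 ratio was −0.25, and over all genes −0.04.

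*Sema6a* was level in this class (406 and 407 CPM, 0.01, −0.08 to 0.09). *Sema4d* stood at 175 and 121 CPM (−0.54) and *Sema6d* at 289.9 and 195 CPM (−0.57), both just short of the limit. *Plxnb1* stood at 41.2 and 37.4 CPM, *Nrp2* at 30.2 and 23.5 CPM and *Sema3d* at 32.3 and 24.9 CPM, and none was called.

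In microglia-like nuclei *Plxnb2* (chr15:89155549-89180788, minus strand) stood at 189.8 CPM in Normal and 80.8 CPM in SAH (−1.23, −1.51 to −0.96). *Sema4d* (chr13:51685529-51793747, minus strand), another ligand of plexin-B2, stood at 199 and 99.7 CPM (−0.99, −1.25 to −0.74). Both were lower in each of the 2 clusters of the class, *Plxnb2* at 222 and 85.2 CPM and at 174 and 76.3 CPM, *Sema4d* at 203 and 99.6 CPM and at 197 and 99.9 CPM. Of its level in neurons of the same library, *Plxnb2* stood at 1843% in Normal and 1296% in SAH. *Sema4d* stood at 363% and 232%.

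*Nrp2* (chr1:62703285-62818695, plus strand) was higher, at 96.3 CPM in Normal and 149 CPM in SAH (0.63, 0.34 to 0.93). In the 2 microglia-like clusters it stood at 98.5 and 128 CPM and at 95.2 and 169.8 CPM. The summed level of the 7 macrophage markers in this class was 302 CPM in Normal and 376 CPM in SAH, and its part in the *Nrp2* ratio was not tested. The call was lost with doublets kept, with centring on genes of like length and with thinning. *Nrp1* stood at 257 and 245 CPM (−0.07, −0.26 to 0.12).

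*Sema6d* was lower, at 61.9 and 35.7 CPM (−0.80, −1.25 to −0.34). Those levels were 17.0% and 9.29% of the level in neurons, while single genes of the neuronal list ranged from 8.43% to 43.3% and from 8.79% to 39.4%. The *Sema6d* call was lost with thinning, and with doublets kept its ratio turned to 0.38. In all 1 of 6 genes was higher and 3 were lower, where 14.7% of 6326 genes tested were higher and 11.9% lower. Over the family the median log2 ratio was −0.48, and over all genes 0.04.

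**Figure D3:**
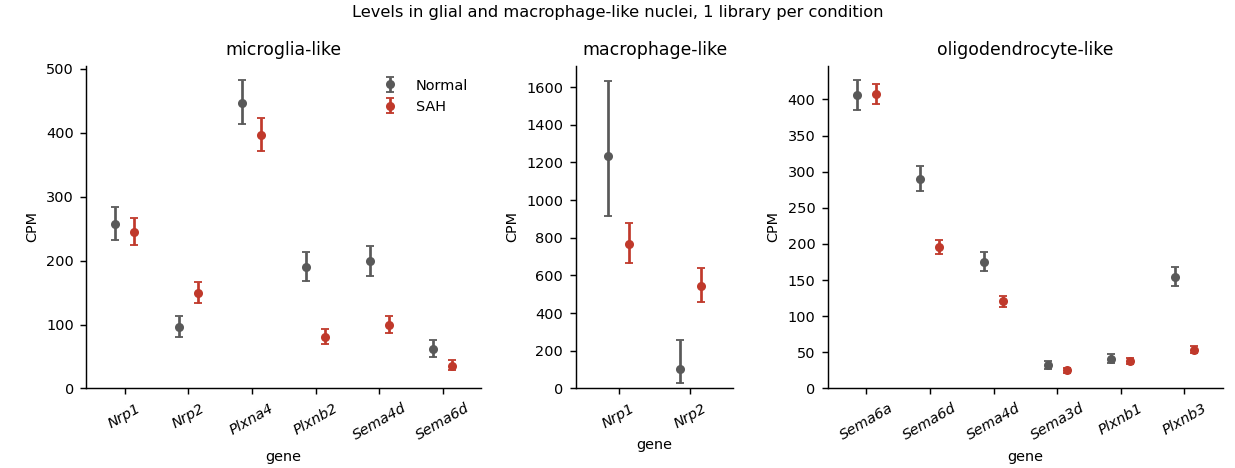
CPM of selected genes in oligodendrocyte-like, microglia-like and macrophage-like nuclei, Normal beside SAH; points are the level in 1 library and bars its exact Poisson 95% interval, which covers counting error only. *Plxnb3* in oligodendrocyte-like nuclei and *Plxnb2* and *Sema4d* in microglia-like nuclei are lower in SAH with intervals apart, *Sema6a* is level, and *Nrp2* is higher in microglia-like nuclei and, on 4 UMIs in Normal, in macrophage-like nuclei.

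The macrophage-like nuclei numbered 30 in Normal (0.274% of kept nuclei) and 114 in SAH (0.734%), too few for the call rule to be read. *Nrp1* had 49 and 204 UMIs, or 1236 and 766 CPM (−0.69, −1.15 to −0.21). *Nrp2* had 4 and 145 UMIs, or 100.9 and 544 CPM (2.43, 1.04 to 4.33). The summed level of the 7 macrophage markers was 12915 CPM in Normal and 6762 CPM in SAH. Each other member had at most 63 UMIs over both libraries. The 20 and 10 vascular nuclei held *Nrp1* at 671 and 658 CPM and *Sema3c* at 349 and 658 CPM.

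In most classes with short members to compare, the lower calls lay mostly in short genes, and so did those of all genes tested. In thalamic nuclei 6 of 9 members under 50 kb were lower, against 18.8% of all genes of that length, and 1 of 12 members of 100 kb or longer, against 2.55%. In upper-layer cortical nuclei the counts were 8 of 12 (25.2%) and 3 of 13 (6.28%), and in deep-layer nuclei 6 of 8 (24.0%) and 2 of 13 (4.40%). In medial ganglionic-type nuclei they were 5 of 9 (27.4%) and 2 of 14 (1.93%), in amygdalar nuclei 3 of 4 (29.5%) and 1 of 11 (3.34%), in other excitatory nuclei 10 of 13 (24.2%) and 2 of 14 (4.09%), and in nuclei of both transmitter types 9 of 14 (25%) and 1 of 14 (1.38%).

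Few short members could be compared elsewhere. In oligodendrocyte-like nuclei 2 of 4 short members were lower (23.3% of all short genes) and 0 of 10 long ones (4.16%), and in caudal ganglionic-type nuclei 1 of 4 (23.1%) and 0 of 12 (1.86%). In microglia-like nuclei it was 1 of 1 (18.9%) and 2 of 5 (2.90%), and in hippocampal nuclei 0 of 1 (23.9%) and 0 of 9 (2.4%). The spiny projection neuron-like class held no short member to compare, and 2 of its 11 long members were lower (2.64%).

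The lower calls among the long genes were of *Nrp1*, *Nrp2*, *Sema3d*, *Sema4d*, *Sema5a*, *Sema5b* and *Sema6d*. All 10 higher calls were of genes of 100 kb or longer, and long genes were more often higher among all genes too. Of genes of 100 kb or longer against those under 50 kb, 11.3% and 7.39% were higher in thalamic, 11.8% and 6.55% in hippocampal, 6.32% and 4.44% in amygdalar, 7.05% and 5.66% in spiny projection neuron-like, 21.5% and 10.9% in oligodendrocyte-like and 21.4% and 10.9% in microglia-like nuclei. In the deep-layer nuclei the median log2 ratio of the short members was −1.02, against −0.29 for all genes of that length, and that of the long members was −0.10 against 0.05.

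**Figure D4:**
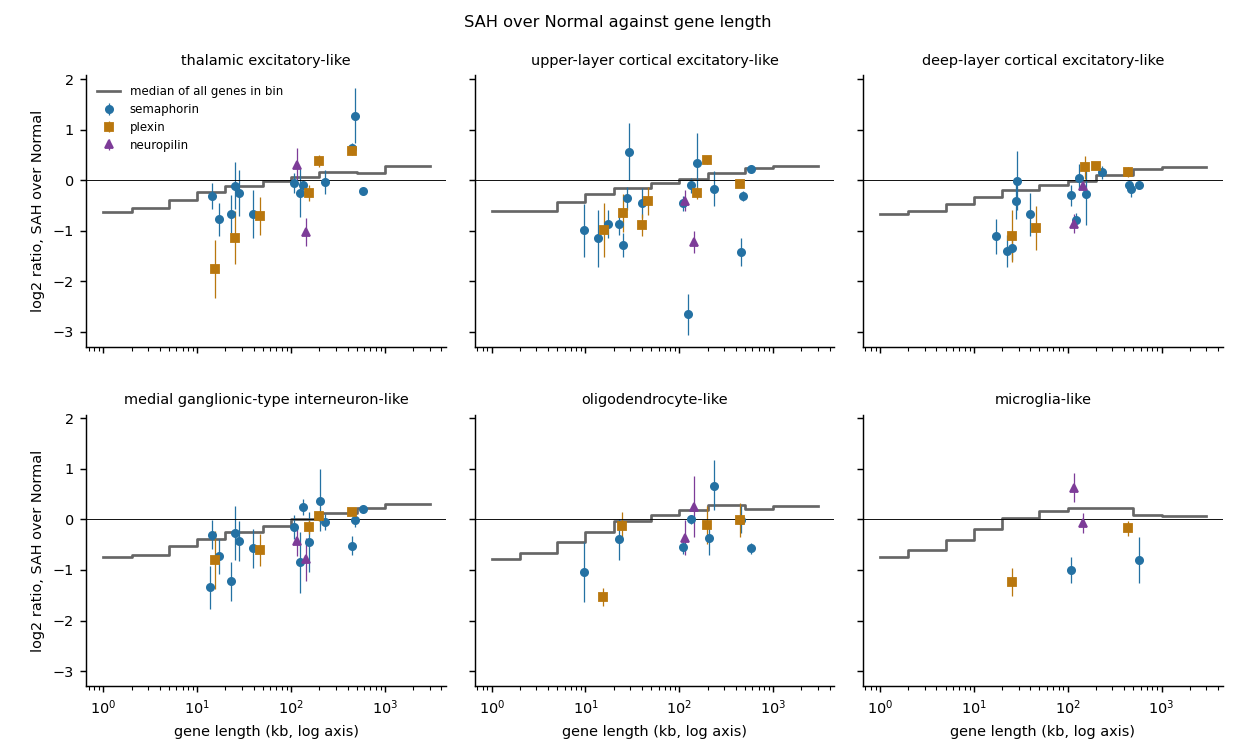
Log2 ratio, SAH over Normal, against gene length in kb (log axis) in single classes; circles are semaphorins, squares plexins and triangles neuropilins, bars are 95% counting intervals, and the line is the median of all genes tested by length. All genes run from below 0 at short lengths to just above 0 at long lengths, and most short members lie below that line in the thalamic and cortical panels.

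Genes related to the family were counted in 3 lists. The list of intracellular effectors and modulators of plexins also holds *Plxdc1* and *Plxdc2*, transmembrane proteins with a plexin-like domain that are not such effectors. Each count is followed by the share of all genes tested in that class that were lower, and many counts lie near that share. Of the 37 intracellular effectors and modulators of plexins, 9 of 32 were lower in upper-layer (19.0%), 8 of 30 in deep-layer (17.0%), 5 of 30 in thalamic (12.9%), 2 of 20 in hippocampal (13%), 5 of 25 in amygdalar (17.8%) and 9 of 32 in other excitatory nuclei (18.2%). They were 7 of 30 in medial ganglionic-type (18.4%), 4 of 27 in caudal ganglionic-type (13.7%), 4 of 21 in spiny projection neuron-like (14.2%), 1 of 23 in other inhibitory (11.7%) and 5 of 33 in nuclei of both transmitter types (17.5%). In glia they were 3 of 27 in oligodendrocyte-like (16.3%) and 3 of 24 in microglia-like nuclei (11.9%). The higher calls of this list were 3 in oligodendrocyte-like (13.7% of all genes there), 2 in upper-layer (11.5%), and 1 each in hippocampal (8.06%), medial ganglionic-type (6.01%) and both-transmitter nuclei (8.79%).

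The lower gene of the effector list with the most UMIs was *Mical2*, an actin-oxidising enzyme that plexins engage, in upper-layer (526 CPM in Normal, 275 CPM in SAH), deep-layer (361 and 230.03 CPM), medial ganglionic-type (267 and 174 CPM) and other excitatory nuclei (468 and 310.2 CPM). It was *Plxdc2* in thalamic (362 and 211 CPM) and microglia-like nuclei (4497 and 2719 CPM), and *Rhoa*, the small GTPase of collapse, in caudal ganglionic-type (43.2 and 22.3 CPM), oligodendrocyte-like (87.5 and 54.3 CPM) and both-transmitter nuclei (42.6 and 26.1 CPM). It was *Mical3* in amygdalar (236 and 148 CPM), *Dpysl2* in hippocampal (107 and 67.8 CPM), *Limk2* in spiny projection neuron-like (40.2 and 24.7 CPM) and *Limk1* in other inhibitory nuclei (31.6 and 19.1 CPM). Of the higher genes of that list, *Fyn* (85.1 and 142 CPM) led in oligodendrocyte-like, *Plxdc1* (13.8 and 22.9 CPM) in upper-layer and *Farp2* (29.0 and 47.8 CPM) in hippocampal nuclei.

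Of the 19 co-receptors and other binding partners, *Trem2* stood at 1028 and 218 CPM (−2.24) and *Tyrobp* at 358 and 156 CPM (−1.20) in microglia-like nuclei. These form a lipid-sensing receptor and its adaptor, and plexin-A1 can join the complex. They were the 2 lower calls of 5 tested there (11.9% of all genes), and none was higher.

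*Vegfa*, the growth factor that neuropilins bind, was lower in thalamic (23.3 and 12.4 CPM), upper-layer (16.1 and 7.98 CPM), deep-layer (14.4 and 8.75 CPM), medial ganglionic-type (51.5 and 20.5 CPM), caudal ganglionic-type (31.4 and 13.5 CPM), other excitatory (16.4 and 10.6 CPM), both-transmitter (24.6 and 15.4 CPM) and oligodendrocyte-like nuclei (29.9 and 14.7 CPM). *Vegfc*, of the same growth factor family, was higher in upper-layer (17.4 and 31.3 CPM) and deep-layer nuclei (7.51 and 13.3 CPM). The adhesion molecule *L1cam* was lower in thalamic (94.5 and 60.4 CPM), amygdalar (55.1 and 34.1 CPM) and caudal ganglionic-type nuclei (49.1 and 29.1 CPM), and *Itgb1*, the beta1 integrin, in caudal ganglionic-type (72.0 and 45.3 CPM) and oligodendrocyte-like nuclei (117 and 67.4 CPM). The integrin gene *Itga1* was higher in thalamic (3.70 and 6.34 CPM), upper-layer (1.28 and 8.34 CPM), other excitatory (1.53 and 6.08 CPM) and both-transmitter nuclei (2.53 and 5.60 CPM), and *Met* in other inhibitory nuclei (26.6 and 42.7 CPM).

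These calls made up 2 of 8 lower and 1 higher in thalamic (12.9% and 8.19% of all genes), 1 of 9 and 2 in upper-layer (19.0% and 11.5%), 1 of 8 and 1 in deep-layer (17.0% and 7.51%), 1 of 6 and 0 in amygdalar (17.8% and 4.78%) and 1 of 9 and 1 in other excitatory nuclei (18.2% and 10.5%). They made up 1 of 7 and 0 in medial ganglionic-type (18.4% and 6.01%), 3 of 6 and 0 in caudal ganglionic-type (13.7% and 4.76%), 0 of 5 and 1 in other inhibitory (11.7% and 4.70%), 1 of 9 and 1 in both-transmitter (17.5% and 8.79%) and 2 of 4 and 0 in oligodendrocyte-like nuclei (16.3% and 13.7%). None of 3 in hippocampal and none of 4 in spiny projection neuron-like nuclei was called.

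Of 40 genes of the other guidance families (netrins, slits, ephrins and their receptors), 5 of 22 were higher in hippocampal nuclei, against 8.06% of all genes, and 1 was lower, against 13%. The higher ones with the most UMIs were *Epha7* (1281 and 2353 CPM), *Dscam* (798 and 1331 CPM) and *Unc5c* (442 and 705 CPM). In upper-layer nuclei 9 of 32 were lower (19.0%), led by *Slit2* (219 and 107 CPM), and *Dscam* was the 1 higher (529 and 852 CPM; 11.5%). In oligodendrocyte-like nuclei 7 of 22 were lower (16.3%), led by *Ephb1* (346 and 211 CPM), and *Unc5c* was the 1 higher (1272 and 1975 CPM; 13.7%).

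In the other classes 2 of 27 were lower in thalamic (12.9%), led by *Epha4* (449 and 262 CPM), 5 of 27 in deep-layer (17.0%), led by *Ephb2* (80.2 and 52.2 CPM), 4 of 23 in amygdalar (17.8%), led by *Unc5a* (64.5 and 40.8 CPM), and 5 of 33 in other excitatory nuclei (18.2%), led by *Ephb6* (18.0 and 10.8 CPM). They were 2 of 26 in medial ganglionic-type (18.4%), led by *Efnb2* (42.3 and 24.5 CPM), 2 of 21 in caudal ganglionic-type (13.7%), led by *Epha4* (115 and 67.6 CPM), 3 of 23 in other inhibitory (11.7%), led by *Efnb3* (43.8 and 22.4 CPM), and 6 of 33 in both-transmitter nuclei (17.5%), led by *Efnb2* (42 and 25.2 CPM). They were 1 of 20 in spiny projection neuron-like (14.2%), which was *Efnb3* (43.0 and 19.1 CPM), and 2 of 14 in microglia-like nuclei (11.9%), led by *Epha5* (163 and 98.8 CPM). Higher calls among these classes were *Ephb1* in thalamic (6.28 and 15.1 CPM; 8.19%), *Dscam* in microglia-like (48.1 and 75.8 CPM; 14.7%) and *Robo2* (495 and 772 CPM) and *Epha3* in other inhibitory nuclei (4.70%).

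Ligands and their receptors were mostly highest in different classes. Of 23 textbook pairs, 2 had ligand and receptor highest in the same class, *Sema4c* with *Plxnb2* and *Sema4d* with *Plxnb2*, both in the microglia-like nuclei. How many matches unrelated genes would give was not worked out. Both neuropilins took their highest class from the few macrophage-like nuclei. The highest class is not sharp for each gene: the intervals of *Sema4d* in microglia-like and oligodendrocyte-like nuclei overlapped, and in the SAH library alone it was highest in the latter. In microglia-like nuclei *Sema4d*, *Sema4c* and *Plxnb2* were all lower in SAH in value, *Sema4c* on 51 and 40 UMIs, too few to be compared. *Sema5a* was highest in hippocampal nuclei and *Plxnb3* in oligodendrocyte-like nuclei. *Sema6a* was highest in oligodendrocyte-like nuclei, and its receptors *Plxna2* and *Plxna4* in deep-layer cortical and hippocampal nuclei. Transcript levels of a pair in nuclei say nothing of contact between the cells.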

How the data were processed

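Counts were deposited by the authors as 1 matrix of whole UMI counts per library (genes by barcodes), not normalised. Nuclei were captured with 10x Genomics 3′ chemistry v3.1. Per the study's methods reads were aligned to mm10 and introns were counted. The submitters' processing notes name Cell Ranger 5.0.0, while the headers of the deposited counts name 6.1.2. No deposited annotation of the nuclei was used here.

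Nuclei were kept with 300 to 7000 genes, under 10% mitochondrial and 3% haemoglobin UMIs and under 100000 UMIs, the limits of the study. These removed 71 Normal and 29 SAH nuclei. Scrublet (scanpy 1.11.5) scores removed 1178 and 2644 likely doublets, at 0.8% per 1000 nuclei. Libraries were integrated in Seurat 5.3.0 (R 4.3.3; CCA, 2000 features, 25 components, resolution 1.2); the 31 genes were not among the features. Names of clusters came from marker lists. The rule that turns marker levels into names was set after the clusters were seen, and some marker lists were trimmed for it. UMIs were summed per class and library and divided by the total of the class. Intervals were exact Poisson for a level and exact conditional binomial for a ratio. Only the ratio interval was tested, on counts simulated from the Poisson model that it assumes. That simulation holds no spread between nuclei or mice and cannot speak to it. The number of UMIs limits the precision of the intervals. With 1 library per condition there was no test between conditions.

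In each class, values are given in full for genes passing the call rule and for the ligand, the plexin and the neuropilin with the highest CPM, and the rest by counts and ranges. Of the pathway lists, genes past the rule are named, at most the 3 with the most UMIs in each direction and class. Members and lists were chosen with earlier results of these data known. Alternatives were doublet removal, integration, resolution, naming of nuclei, quality limits, centring of ratios, thinning, class make-up, the UMI minimum and the fold. Promoter sequences are from RefSeq. Python 3.11.15, numpy 2.4.6, scipy 1.17.1, pandas 2.3.3 and matplotlib 3.10.9 were used.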

Additional observations from a re-analysis of the deposited data

How the results depend on the processing

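Of the counts of called genes and family medians recomputed under the alternatives, 378 stayed within the limits set for them, 73 moved and 1 reversed. Of the single ratios and levels 1278 stayed, 308 moved and 10 reversed. The counts of called genes below stand without the share of all genes called under the same setting, and mostly without the number compared. They show how the family counts moved and cannot be set against all genes. Omitting the integration and stricter limits on nuclei moved no count or median past those limits, but single calls were lost. *Sema3a* in amygdalar nuclei lost its call without integration, and *Sema7a* in thalamic nuclei lost it with stricter limits on nuclei. With equal make-up of the class 1 gene was higher in other excitatory nuclei. With doublets kept, 1 gene was higher in upper-layer, 3 were lower in caudal ganglionic-type and 0 were higher in microglia-like nuclei, and the log2 ratio was 0.40 for *Sema5a* in upper-layer and 0.38 for *Sema6d* in microglia-like nuclei. At resolution 0.6, 2 were higher in upper-layer and 0 in spiny projection neuron-like nuclei, and the *Sema5a* ratio in upper-layer nuclei was 0.28. With nuclei named one by one, 1 was higher in thalamic, 0 higher and 3 lower in hippocampal, 1 higher and 0 lower in medial ganglionic-type, 2 lower in caudal ganglionic-type, 1 higher in amygdalar, 7 lower in other inhibitory, 0 higher in spiny projection neuron-like, and 0 higher and 1 lower in oligodendrocyte-like nuclei. The ratios were then −0.37 for *Sema3e* in hippocampal, 0.057 for *Sema5b* in medial ganglionic-type and −0.0059 for *Sema3a* in spiny projection neuron-like nuclei.

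Centred on the median of all genes, which lay between −0.19 and −0.13 in the upper-layer, deep-layer, both ganglionic-type and spiny projection neuron-like classes and between −0.18 and −0.12 in the amygdalar, other and both-transmitter classes, 1 was higher in upper-layer, 1 in other excitatory and 2 in spiny projection neuron-like nuclei, and 5 were lower in both-transmitter nuclei. Centred on genes of like length, 1 was higher in thalamic, 1 in upper-layer, 1 in hippocampal, 0 in oligodendrocyte-like and 0 in microglia-like nuclei, and 5 were lower in oligodendrocyte-like and 6 in both-transmitter nuclei.

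Thinned to 1000 UMIs per nucleus, far fewer genes reached the UMI minimum (2 to 15 per class). Then 0 were lower in thalamic, 1 in upper-layer, 1 in deep-layer, 0 in medial ganglionic-type, 0 in caudal ganglionic-type, 0 in spiny projection neuron-like, 0 in amygdalar, 1 in other excitatory and 1 in both-transmitter nuclei, and 0 were higher in oligodendrocyte-like, 0 in microglia-like and 1 in other excitatory nuclei. Over these fewer genes the family median was 0.29 in thalamic, −0.093 in upper-layer, 0.93 in amygdalar, −0.084 in other excitatory and 0.057 in medial ganglionic-type nuclei. The ratio was 0.53 for *Plxnb2* in upper-layer, 0.22 for *Plxna3* in other excitatory, 0.11 for *Sema3d* in both-transmitter and 0.040 for *Sema5b* in spiny projection neuron-like nuclei.

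With a minimum of 50 UMIs, 1 was higher in upper-layer, 1 lower in hippocampal, 3 lower in caudal ganglionic-type, 7 lower in amygdalar, 4 lower in other inhibitory, 2 higher and 4 lower in spiny projection neuron-like and 6 lower in microglia-like nuclei. With 200 UMIs, 4 were lower in thalamic, 5 in deep-layer, 4 in medial ganglionic-type, 0 in caudal ganglionic-type, 1 in amygdalar and 1 in oligodendrocyte-like nuclei, and 1 was higher in hippocampal nuclei. At 2-fold, 1 was higher and 3 lower in thalamic, 5 lower in upper-layer, 4 lower in deep-layer, 1 higher in hippocampal, 1 higher in amygdalar, 6 lower in other excitatory, 2 lower in both-transmitter, 2 lower in medial ganglionic-type, 0 higher and 1 lower in spiny projection neuron-like, 0 higher in oligodendrocyte-like, and 0 higher and 1 lower in microglia-like nuclei. Fewer genes qualify by construction at 200 UMIs and at 2-fold; otherwise the cause was not tested.

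No cluster took the amygdalar name with doublets kept, so that setting gave it no value. No paired analysis was possible because each condition had 1 library. Pooled mice within a library cannot be told apart, and an interval says nothing of the spread between mice. Nuclei of the astrocyte and vascular classes were too few for any comparison.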
